A study of Mus musculus with 23 samples.

Results

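Collagen genes were taken as every row of the count table whose Ensembl identifier maps to a protein-coding mouse gene with a symbol of the form Col, number, a, number, which gave 44 of 55487 genes. Their RNA was measured by RNA-seq in 23 libraries of primary murine embryonic fibroblasts (MEFs), untransformed connective tissue cells grown from minced embryos of embryonic day E13.5 after the head and organs had been removed. The mice were of the FVB/NJ strain, and heterozygous parents were intercrossed so that homozygous cultures of 4 glucocorticoid receptor (GR) genotypes could be compared. GRwt/wt cells carried the unmodified receptor, GRD/D cells a point mutation at the dimer contact of the DNA-binding domain, GRL/L cells a point mutation in the ligand-binding domain, and GRD+L/D+L cells both mutations. Each genotype was grown for 5 h with either vehicle or dexamethasone (Dex), a synthetic glucocorticoid that binds GR, at 10 nM. There were 3 libraries in each group of genotype and treatment apart from GRD/D vehicle, which had 2, and each culture of a genotype came from a different mouse. The L alleles were made with CRISPR/Cas9 in zygotes that carried a D allele and were backcrossed for 5 generations, mice homozygous for either L allele die around birth, and both mutations leave the receptor gene transcribed, so that its count does not check the genotype.

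Collagens are proteins of the extracellular matrix in which 3 alpha chains wind into a triple helix. The chains are made by separate genes, hydroxylated in the endoplasmic reticulum, secreted and, in the fibril-forming types, trimmed and cross-linked into fibrils. Fibroblasts are a main source of type I and type III collagen in connective tissue, and glucocorticoids are known to reduce collagen synthesis in skin.

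Libraries held 16.45 M to 23.12 M counts, and 18667 to 20200 genes had at least 1 count. GRwt/wt vehicle 1 and GRwt/wt vehicle 3 stood apart from the rest. GRwt/wt vehicle 1 had a best rank correlation of 0.916 with any other library, against at least 0.973 for each of the others. Its deviations followed the GC content of genes with a rank correlation of 0.688 across genes. In GRwt/wt Dex 1 the correlation with GC content was 0.331, and in the remaining libraries it lay between -0.201 and 0.109. In GRwt/wt vehicle 3 the macrophage enzyme gene Lyz2 was at 3379 CPM (counts relative to the library's total after TMM scaling), while the other GRwt/wt libraries held 6.68 to 63.6 CPM. A list of 8 macrophage markers summed to 4505 CPM in GRwt/wt vehicle 3 and to 15.8 CPM in the lowest GRwt/wt vehicle library, and to 14.7 to 92.1 CPM in GRwt/wt Dex, 249 to 1562 CPM in GRD/D, 279 to 701 CPM in GRL/L and 5.81 to 76.8 CPM in GRD+L/D+L libraries. All 8 fibroblast markers outside the collagen family had counts in each group and summed to between 4286 and 8486 CPM per library. Calls against GRwt/wt vehicle that were lost without GRwt/wt vehicle 1, vehicle 3 or both are given with and without them. In such bulk samples fewer cells of a type and less RNA per cell cannot be told apart.

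Collagen genes took between 4.008% of all counts in GRwt/wt vehicle 2 and 7.923% in GRD+L/D+L vehicle 2. A mean of at least 1000 CPM over the 23 libraries was reached by 11 genes, 6 lay between 100 and 1000 CPM, 18 between 1 and 100 CPM and 9 under 1 CPM, and 38 of the 44 had a count in every library. The genes Col4a3, Col13a1 and Col19a1 did not pass the expression filter, with means of 0.102, 0.135 and 0.155 CPM and at most 6, 6 and 10 counts in any library, where 3 counts correspond to 0.136 to 0.187 CPM. The other 41 were tested.

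Most collagen RNA came from fibrillar collagens, the types that assemble into the cross-banded fibrils of connective tissue. The 11 fibrillar genes held a median of 77.18% of collagen counts per library, with a range of 70.85% to 82.4%. Col1a1 and Col1a2, the 2 chains of type I collagen, and Col3a1, the single chain of type III collagen, together held 60.02% to 70.04% of collagen counts. Their mean levels were 12719 CPM for Col1a1, 13424 CPM for Col1a2 and 12082 CPM for Col3a1. Per kilobase of all exons joined, a scale on which genes may be compared, Col1a1 had a mean of 1938 CPM per kb, Col3a1 1231 and Col1a2 1080. With the longest transcript as the length the same means were 2145, 2171 and 2510 CPM per kb, so the order of these 3 depends on how length is defined. Col5a1 and Col5a2, chains of the type V collagen that is built into type I fibrils, followed among fibrillar genes at 350.5 and 360.3 CPM per kb of exons.

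The 6 genes of the beaded filament class, the type VI collagens found around cells, held a median of 10.16% of collagen counts. Col6a1 led them at 549.5 CPM per kb, with 206.5 for Col6a2 and 166.7 for Col6a3. The 9 FACIT genes, whose products sit on the surface of fibrils, held a median of 5.822%, led by Col12a1 at 182.5 CPM per kb. The 6 genes of type IV collagen, the network of basement membranes, held 4.978%, with Col4a1 at 243.6 and Col4a2 at 216.6 CPM per kb. Smaller median shares belonged to the multiplexins, which carry interrupted triple helices and are attached to basement membranes (0.7735%, led by Col18a1 at 73.5 CPM per kb), to the hexagonal network class of types VIII and X (0.461%, led by Col8a1 at 35.7 CPM per kb) and to Col7a1, the anchoring fibril collagen of skin (0.07344%, 4.08 CPM per kb). The 4 transmembrane genes held 0.01863%, led by Col23a1 at 1.68 CPM per kb, and the 2 remaining genes 0.01122%, led by Col28a1 at 0.874 CPM per kb.

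**Figure D1:**
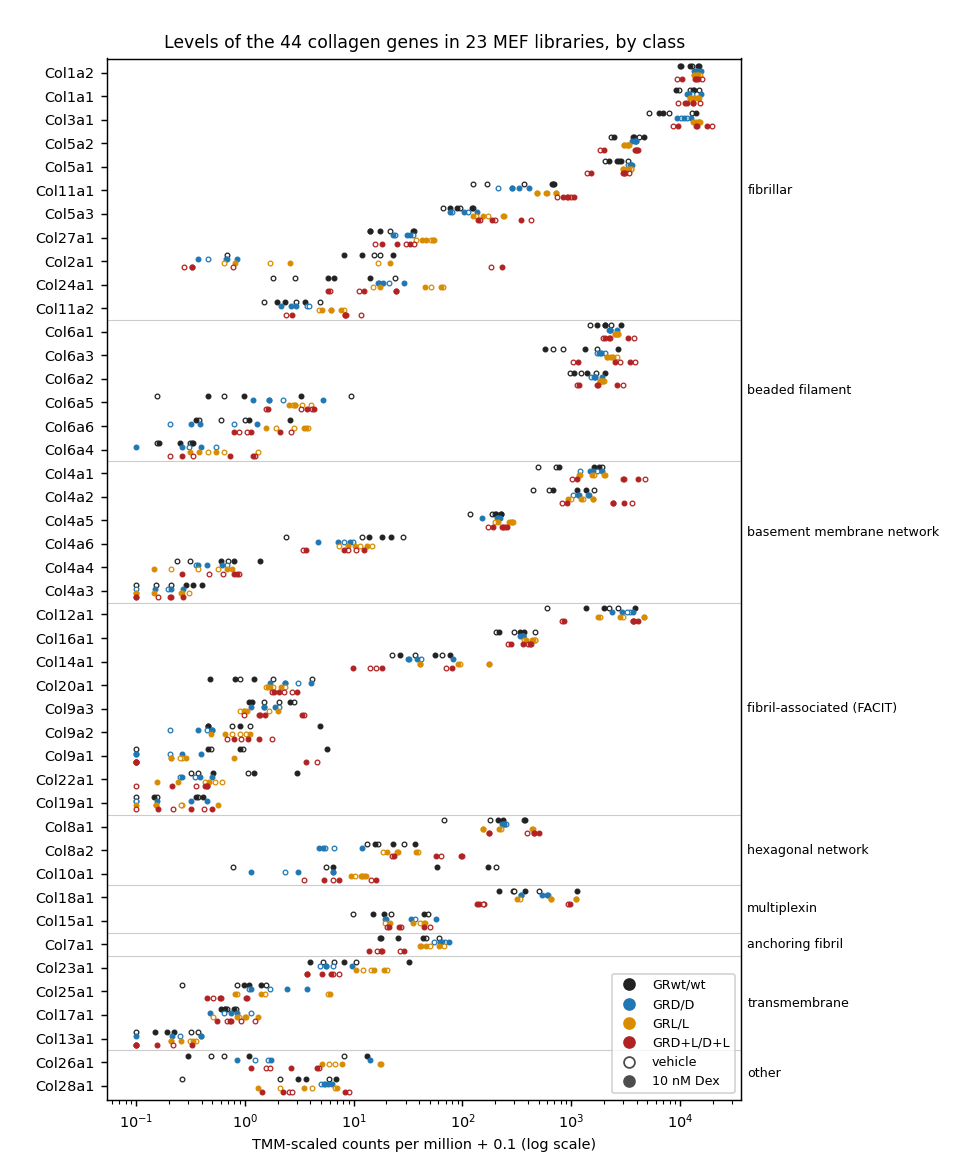
Level of each of the 44 collagen genes in the 23 libraries, grouped by structural class, as CPM plus 0.1 on a logarithmic axis (open points, vehicle; filled points, Dex; colours, genotypes). Col1a1, Col1a2 and Col3a1 lie at 5188 CPM or more in each library, while 9 genes have means under 1 CPM.

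Ratios between collagen genes differed in how far they varied between libraries. Among chains that can join in 1 trimer, the ratio of Col1a1 to Col1a2 in CPM lay between 0.8526 and 1.074 in the 23 libraries, and that of Col4a1 to Col4a2 between 1.104 and 1.412, although Col4a1 itself spanned 492 to 4774 CPM. Col6a1 to Col6a2 ranged from 1.251 to 1.737. Wider ranges were seen for Col6a3 to Col6a1 (0.3282 to 1.245) and Col5a1 to Col5a2 (0.4894 to 1.178). Between genes of different collagen types, Col3a1 to Col1a1 ranged from 0.4864 to 1.356 and the multiplexins Col18a1 to Col15a1 from 3.065 to 46.6. The ratios compare libraries, and no test was applied to them.

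A gene was called if its absolute log2 fold change (LFC) was at least 1 and its p, after Benjamini-Hochberg adjustment over all 15748 genes tested, was at most 0.05. By this rule 3 collagen genes, Col11a1, Col5a3 and Col8a2, were called in at least 1 comparison. Col11a1 (chr3:114030540-114220718, plus strand, GRCm38) encodes the alpha 1 chain of type XI collagen, a minor fibrillar collagen best known from cartilage. Col5a3 (chr9:20770050-20815067, minus strand) encodes the third chain of type V collagen, and Col8a2 (chr4:126286793-126314330, plus strand) the alpha 2 chain of type VIII collagen, a short-chain collagen of the hexagonal lattice in the corneal endothelial basement membrane. The bases just upstream of their annotated starts are printed 5′ to 3′ on the gene's strand. These 3 genes were chosen as the members called by the rule above. Sequences are from RefSeq GRCm38.p6, and capitals mark GC boxes (GGGCGG) and CCAAT boxes (CCAAT), each on either strand.

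Col11a1, chr3:114030290-114030539, plus strand: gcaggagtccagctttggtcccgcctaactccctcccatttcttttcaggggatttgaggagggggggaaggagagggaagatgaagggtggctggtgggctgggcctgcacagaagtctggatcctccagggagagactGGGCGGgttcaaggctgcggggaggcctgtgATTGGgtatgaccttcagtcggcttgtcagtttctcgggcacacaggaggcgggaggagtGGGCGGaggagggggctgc

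Col5a3, chr9:20815068-20815317, minus strand: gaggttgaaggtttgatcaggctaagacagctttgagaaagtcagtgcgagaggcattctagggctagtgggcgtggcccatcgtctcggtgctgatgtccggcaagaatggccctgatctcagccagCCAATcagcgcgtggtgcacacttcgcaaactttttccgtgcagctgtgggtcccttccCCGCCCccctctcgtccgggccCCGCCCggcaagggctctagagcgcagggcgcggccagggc

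Col8a2, chr4:126286544-126286792, plus strand: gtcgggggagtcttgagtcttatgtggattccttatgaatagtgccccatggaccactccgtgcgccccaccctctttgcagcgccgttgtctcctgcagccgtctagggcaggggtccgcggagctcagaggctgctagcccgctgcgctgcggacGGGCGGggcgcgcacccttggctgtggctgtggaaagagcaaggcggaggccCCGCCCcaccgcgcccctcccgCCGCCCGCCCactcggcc

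The windows of Col11a1 and Col5a3 each held 2 GC boxes and 1 CCAAT box, and that of Col8a2 held 4 GC boxes, 2 of them overlapping, and no CCAAT box. A window was present for 35 of the 44 collagen genes, and for Col18a1, Col6a2 and Col9a1 more than 1. A gene was counted if any of its windows held the letters, while shares over all genes are per window. GC boxes were found in 21 of the 35 genes, against 32.7% of 32851 windows, and CCAAT boxes in 13 of the 35, against 33.8%. The letters of a palindromic GR site (AGAACA, 3 bases of any kind, TGTTCT) were in none of the 35 and in 0.00913% of all windows, and its first arm AGAACA searched alone was in those of Col20a1 and Col9a1 and in 16.1% of all. TATAAA was in 5 of the 35 and 12.4% of all. Such letters describe the windows only.

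Genotypes were compared without added Dex in vehicle libraries. The same 3 GRwt/wt vehicle libraries were the reference for each mutant. Col11a1 was at 125, 371 and 166 CPM in GRwt/wt vehicle and at 211 and 283 CPM in GRD/D vehicle. It was at 602, 483 and 729 CPM in GRL/L vehicle and at 743, 918 and 997 CPM in GRD+L/D+L vehicle. All values of these 2 groups lay above every GRwt/wt and GRD/D vehicle value, and GRwt/wt and GRD/D overlapped.

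In GRL/L against GRwt/wt vehicle, Col11a1 rose by an LFC of 1.45 (SE 0.30, 95% interval 0.82 to 2.08, adjusted p = 0.00265) and was the only collagen gene of 41 called, where 7.78% of all genes were called, 4.93% higher and 2.84% lower. Unadjusted p-values under 0.05 were found for 9 collagen genes and for 37.1% of all genes. Col4a5, a type IV chain encoded on the X chromosome, was at 292, 285 and 201 CPM against 188, 199 and 117 CPM, and its LFC of 0.63 (adjusted p = 0.0411) fell short of the fold threshold. In the main edgeR fit Col6a6 of the type VI family did not pass (LFC 2.28, adjusted p = 0.0527). Nor did Col27a1, a fibrillar collagen of cartilage (1.01, 0.0575), or Col24a1, a fibrillar collagen of developing bone (2.23, 0.0642). All 3 were called by DESeq2 (adjusted p = 0.0193, 0.0298 and 0.0225), which called 9.8% of all genes. With the GC trend removed edgeR called Col6a6 and Col27a1 (adjusted p = 0.0363 and 0.0301). The Col24a1 values were 51.4, 66.6 and 15.1 CPM against 1.71, 2.79 and 23.6 CPM, so the groups overlapped through GRwt/wt vehicle 3, without which the LFC was 4.33 (adjusted p = 0.00145). The median LFC of the 41 collagen genes was 0.49, with 31 above 0, beside a median of -0.05 over all genes, of which 47.4% were above 0. Without GRwt/wt vehicle 1 and 3 together the Col11a1 LFC was 0.69 (adjusted p = 0.0841) and 6 other collagen genes were called, and without GRwt/wt vehicle 3 alone 9 collagen genes were called, Col11a1 among them. In a fit of only the libraries compared Col11a1 had an adjusted p of 0.0521.

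In GRD+L/D+L against GRwt/wt vehicle, Col11a1, Col5a3 and Col8a2 rose, 3 of 41 collagen genes. Of all genes 8.32% were called, 3.62% higher and 4.71% lower, so with 41 genes this count was near the background. The LFC of Col11a1 was 2.00 (SE 0.30, 95% interval 1.36 to 2.64, adjusted p = 0.000622). This call was kept in each alternative run, with LFC from 1.24 without GRwt/wt vehicle 1 and 3 together to 2.59 when single libraries were left out.

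Col5a3 was at 95.7, 65.6 and 124 CPM in GRwt/wt vehicle and at 145, 423 and 200 CPM in GRD+L/D+L vehicle. Its groups did not overlap, and replicate 2 of GRD+L/D+L was the highest of all libraries. The LFC was 1.43 (SE 0.41, 95% interval 0.56 to 2.30, adjusted p = 0.0232). Without GRD+L/D+L vehicle 2 it was 0.86 with an adjusted p of 0.160, without GRwt/wt vehicle 2 the adjusted p was 0.0704, and in a fit of only the libraries compared it was 0.0876. GRL/L vehicle libraries held 171, 132 and 237 CPM and GRD/D vehicle libraries 79.7 and 113 CPM.

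Col8a2 was at 29.0, 16.8 and 13.1 CPM in GRwt/wt vehicle and at 22.5, 63.3 and 99.4 CPM in GRD+L/D+L vehicle. Replicate 1 of GRD+L/D+L lay inside the GRwt/wt range and the others above it. The LFC was 1.65 (SE 0.55, 95% interval 0.49 to 2.82, adjusted p = 0.0428). Without GRD+L/D+L vehicle 3 it was 1.13 (adjusted p = 0.196), without GRwt/wt vehicle 3 it was 1.49 (adjusted p = 0.0876), without GRwt/wt vehicle 1 and 3 together 1.86 (adjusted p = 0.144), and 9 of the alternatives tried ended the call. One of them added sex, read from X- and Y-linked counts, as a covariate (adjusted p = 0.0603), where all 6 GRD+L/D+L libraries were male and 2 of 6 GRwt/wt libraries female. GRL/L vehicle libraries held 24.8, 18.5 and 39.2 CPM and GRD/D vehicle libraries 6.45 and 5.38 CPM, the lowest of the vehicle groups.

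**Figure D2:**
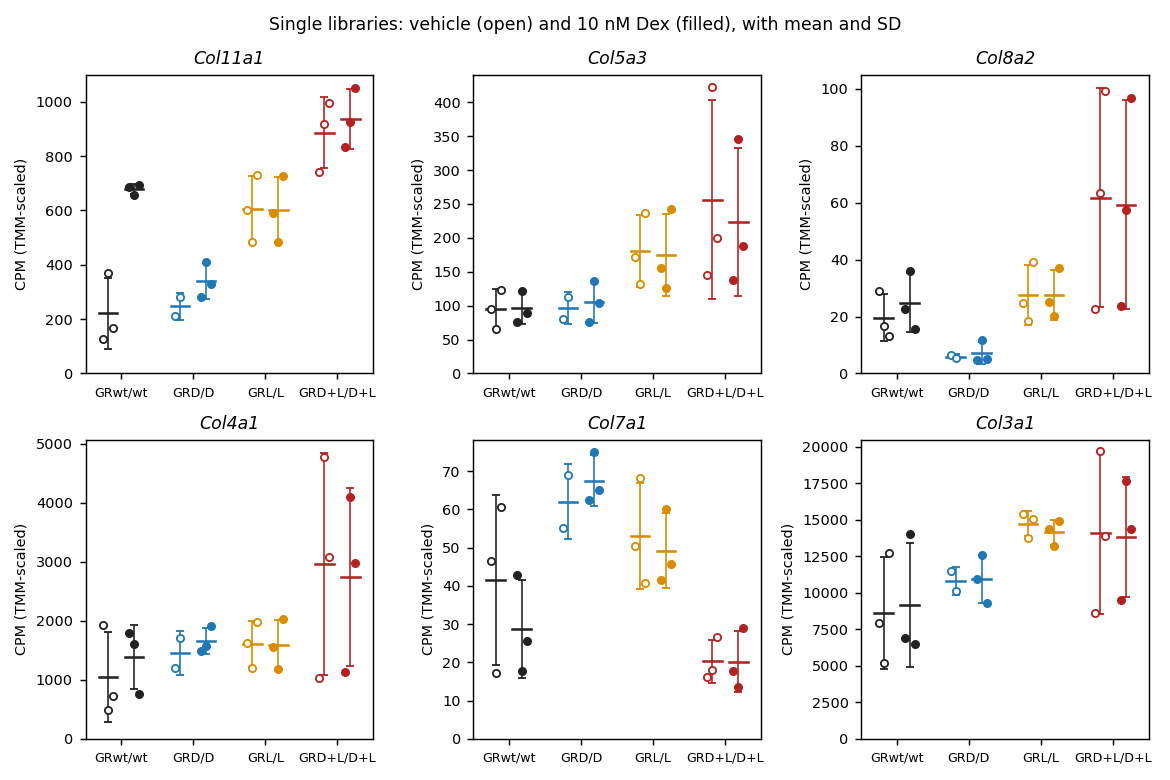
CPM of Col11a1, Col5a3, Col8a2, Col4a1, Col7a1 and Col3a1 in every library by genotype and treatment, with the mean and SD of each group as bars, on linear axes from 0. Col11a1 in GRwt/wt lay at 125 to 371 CPM in vehicle and 658 to 693 CPM in Dex, and in GRD+L/D+L at 743 to 1052 CPM in both.

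The main chains of type IV collagen, Col4a1 and Col4a2, did not pass in the edgeR fit of GRD+L/D+L and passed in several alternatives. Col4a1 was at 1924, 492 and 728 CPM in GRwt/wt vehicle and at 1022, 4774 and 3079 CPM in GRD+L/D+L vehicle, with overlapping groups, an LFC of 1.50 and an adjusted p of 0.0644. Col4a2, which starts head to head with Col4a1 on chromosome 8 and shares 22 exon bases with it, had an LFC of 1.36 (adjusted p = 0.0711). Without GRwt/wt vehicle 1, where both were highest among GRwt/wt vehicle libraries, the LFC was 2.29 for Col4a1 and 2.11 for Col4a2 (adjusted p = 0.0109 and 0.0112). Both were also called without GRwt/wt vehicle 1 and 3 together (2.57 and 2.34), without GRD+L/D+L vehicle 1 (adjusted p = 0.0205 and 0.0199), with the GC trend removed (1.83 and 1.66) and by DESeq2 (adjusted p = 0.0212 and 0.0261), which called 10.7% of all genes. The median LFC of the 41 collagen genes was 0.44, with 28 above 0, beside -0.05 over all genes. Col1a1 was at 12222, 9843 and 14840 CPM in GRwt/wt vehicle and at 9637, 15213 and 13020 CPM in GRD+L/D+L vehicle. Col3a1 was at 7921, 5188 and 12741 against 8610, 19716 and 13903 CPM, so that the groups overlapped for both. For Col3a1 the overlap came through GRwt/wt vehicle 3. Without that library Col3a1 was called higher in GRD+L/D+L (LFC 1.16, adjusted p = 0.0274) and in GRL/L (LFC 1.22, adjusted p = 0.0178).

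In GRD/D against GRwt/wt vehicle no collagen gene was called by edgeR or by DESeq2, where edgeR called 0.00635% of all genes and DESeq2 0.221%, and 2 collagen genes and 12.4% of all genes had an unadjusted p under 0.05. One was Col8a2 (LFC -1.73, SE 0.65, unadjusted p = 0.0169, adjusted p = 0.350), with 6.45 and 5.38 CPM below each GRwt/wt vehicle value. Col10a1, the short-chain collagen of hypertrophic cartilage, had an LFC of -4.04 (adjusted p = 0.371), with 5.52, 204 and 0.679 CPM in GRwt/wt vehicle and 2.22 and 6.31 CPM in GRD/D vehicle. GRwt/wt vehicle 2 was the high library of the 5. The median collagen LFC was 0.20, with 28 of 41 above 0, beside -0.06 over all genes.

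**Figure D3:**
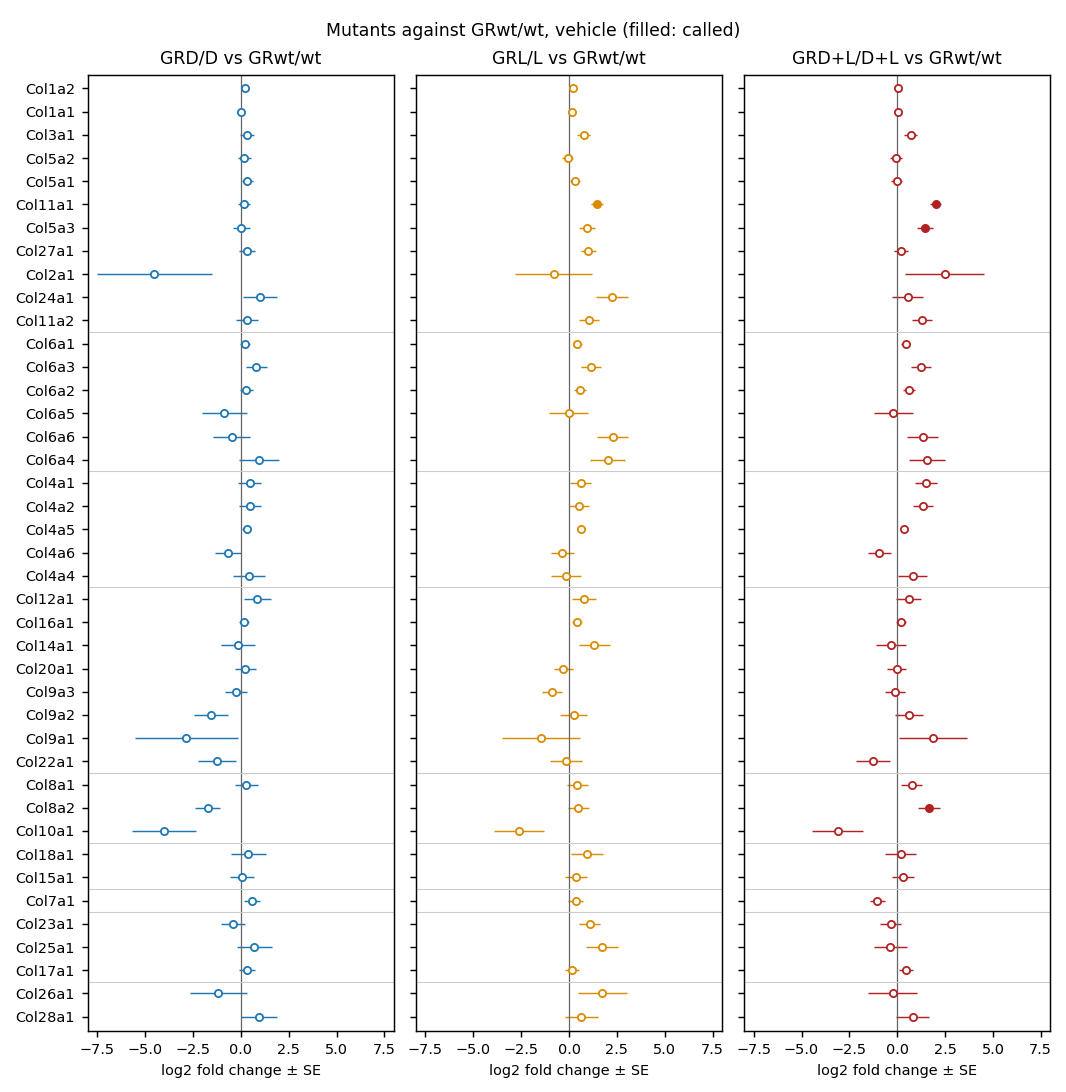
LFC with SE of the 41 tested collagen genes in each mutant against GRwt/wt vehicle, by structural class; filled points passed both thresholds. Filled points are Col11a1 in GRL/L (1.45) and Col11a1, Col5a3 and Col8a2 in GRD+L/D+L (2.00, 1.43 and 1.65), and GRD/D has none.

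The double mutant was also set against each single mutant in vehicle. These are separate cultures from different embryos. Against GRD/D, Col11a1 (LFC 1.84, SE 0.35, 95% interval 1.11 to 2.58, adjusted p = 0.0156) and Col8a2 (3.38, SE 0.71, 1.90 to 4.87, adjusted p = 0.0226) rose, 2 of 41 where 1.02% of all genes were called. Both calls were lost without either of the 2 GRD/D vehicle libraries (adjusted p from 0.103 to 0.296) and without GRD+L/D+L vehicle 2 (0.0743 for Col11a1 and 0.0774 for Col8a2), and that of Col8a2 also without GRD+L/D+L vehicle 3 (0.0598). Against GRL/L no collagen gene was called by edgeR, where 0.0953% of all genes were called, 0.0127% higher and 0.0826% lower, 5 collagen genes and 9.57% of all genes had an unadjusted p under 0.05, and DESeq2 called Col7a1 among 1.15% of all genes. Col11a1 had an LFC of 0.55 in this comparison (adjusted p = 0.604).

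Col7a1 (chr9:108953586-108984875, plus strand) was at 16.1, 18.0 and 26.6 CPM in GRD+L/D+L vehicle, at 50.5, 68.1 and 40.7 CPM in GRL/L vehicle and at 55.1 and 68.9 CPM in GRD/D vehicle. The double mutant did not overlap either single mutant. The LFC was -1.39 (SE 0.40, 95% interval -2.22 to -0.56, adjusted p = 0.211) against GRL/L and -1.62 (SE 0.43, adjusted p = 0.0657) against GRD/D, neither of which passed in the edgeR fit. DESeq2, which called 3.04% of all genes against GRD/D, called Col7a1 against both (adjusted p = 0.0381 and 0.0114), and edgeR called it against GRD/D with the GC trend removed (LFC -1.69, adjusted p = 0.0384). GRwt/wt vehicle libraries spread over both ranges at 46.6, 17.2 and 60.7 CPM, and the LFC against them was -1.04 (adjusted p = 0.0694), -1.18 with upper-quartile scaling (adjusted p = 0.0390) and -1.42 without GRwt/wt vehicle 2, the low library (adjusted p = 0.00973).

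The response to ligand was read as Dex against vehicle within a genotype. In GRwt/wt, Col11a1 rose from 125, 371 and 166 CPM in vehicle to 685, 658 and 693 CPM in Dex. All 3 Dex values lay above all vehicle values, and their SD of 18.2 CPM was below the 132 CPM of the vehicle libraries. The LFC was 1.62 (SE 0.30, 95% interval 0.99 to 2.25, adjusted p = 0.0253), 1 of 41 collagen genes where 0.159% of all genes were called, each of them higher. The call was lost without any 1 of the 3 Dex libraries (LFC 1.60 to 1.64, adjusted p 0.0637 to 0.0790). It was also lost in a fit of only the libraries compared (LFC 1.63, adjusted p = 0.970). It was kept by DESeq2 (LFC 1.64, adjusted p = 5.72e-05) and in edgeR with sex as a covariate (LFC 1.68, adjusted p = 0.0107). Without GRwt/wt vehicle 1 and 3 together the LFC was 0.86 (adjusted p = 0.258), and without vehicle 2 it was 2.21 (adjusted p = 0.000371).

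GRwt/wt vehicle 1, the library whose deviations followed GC content most closely, had the lowest Col11a1 value. With the GC trend of each library removed the LFC of Col11a1 was 1.55 and remained called, and it was 1.34 without vehicle 1 and 1.48 without vehicle 3, the library with macrophage RNA, called in both. The levels that Dex-treated GRwt/wt libraries reached, 658 to 693 CPM, lay within the range of 483 to 729 CPM of GRL/L vehicle libraries. Both comparisons share the GRwt/wt vehicle libraries.

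The type I and type III chains, which glucocorticoids are known to lower in skin, had LFC near 0 in GRwt/wt after 5 h. Col1a1 was at 12222, 9843 and 14840 CPM in vehicle and 9205, 13179 and 13281 CPM in Dex (LFC -0.05, 95% interval -0.46 to 0.37), and Col1a2 at 12791, 9879 and 14769 CPM against 10193, 14454 and 12364 CPM (LFC -0.02, -0.43 to 0.39). Vehicle and Dex overlapped for both genes. Col3a1 was at 7921, 5188 and 12741 CPM in vehicle and 6904, 14037 and 6460 CPM in Dex, again overlapping (LFC 0.08, -0.64 to 0.81). Col20a1, a FACIT collagen, was at 1.71, 0.805 and 4.08 CPM in vehicle and 0.708, 1.12 and 0.374 CPM in Dex (LFC -1.56, SE 0.50, adjusted p = 0.176), which did not pass. The LFC was -0.70 without vehicle 3, and without vehicle 2 it was -1.96 and called (adjusted p = 0.0319). It shares 79 exon bases with another annotated gene on the same strand, and reads there cannot be assigned with certainty. The median LFC of the 41 genes was 0.24, with 27 above 0, beside -0.01 over all genes.

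In the mutants no collagen gene was called with Dex by edgeR or DESeq2, and in the edgeR fit without pairing of libraries no collagen gene had an unadjusted p under 0.05. The share of all genes called was 0% by edgeR in each mutant genotype and 0.0127%, 0% and 0.0318% by DESeq2 in GRD/D, GRL/L and the double mutant, and 0.978%, 0.273% and 0.343% of all genes had an unadjusted p under 0.05 in edgeR. Col11a1 was at 211 and 283 CPM in GRD/D vehicle and 282, 410 and 328 CPM in GRD/D Dex, with an LFC of 0.46 whose 95% interval of -0.23 to 1.16 includes both 0 and more than the fold threshold. In GRL/L Dex it was at 591, 484 and 726 CPM and in GRD+L/D+L Dex at 833, 927 and 1052 CPM, each close to its equally numbered vehicle library.

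For the 35 collagen genes with a mean of at least 1 CPM the LFC with Dex ran from -1.56 to 1.62 in GRwt/wt, from -0.57 to 2.02 in GRD/D, from -0.29 to 0.38 in GRL/L, and from -0.28 to 0.32 in GRD+L/D+L. LFC of at most 0.2 in absolute size were found for 12, 22, 33 and 29 of the 35 in this order. The value of 2.02 in GRD/D was that of Col26a1, a collagen of developing reproductive tissues, and rested on Dex replicate 2, since 13.9 CPM there stood against 0.743 to 1.63 CPM in the other GRD/D libraries. Equally numbered vehicle and Dex libraries deviated together in the 2 genotypes with the L mutation, and a fit of each with that number as a block gave median SE of 0.0386 for GRL/L and 0.0606 for GRD+L/D+L. There the 95% interval of the LFC lay within 1 of 0 for all 35 genes in GRL/L and for all 34 that could be fitted in the double mutant, where Col25a1 did not pass the expression filter. Unadjusted p-values under 0.05 were found in these fits for 5 collagen genes in GRL/L, where 5.17% of all genes had one, and for 4 in the double mutant, where 7.08% had one, and the smallest adjusted p was 0.860 and 0.374. That of 0.374 belonged to Col5a3, at 145, 423 and 200 CPM in GRD+L/D+L vehicle and 137, 346 and 188 CPM in the equally numbered Dex libraries (LFC -0.16, unadjusted p = 0.00238).

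**Figure D4:**
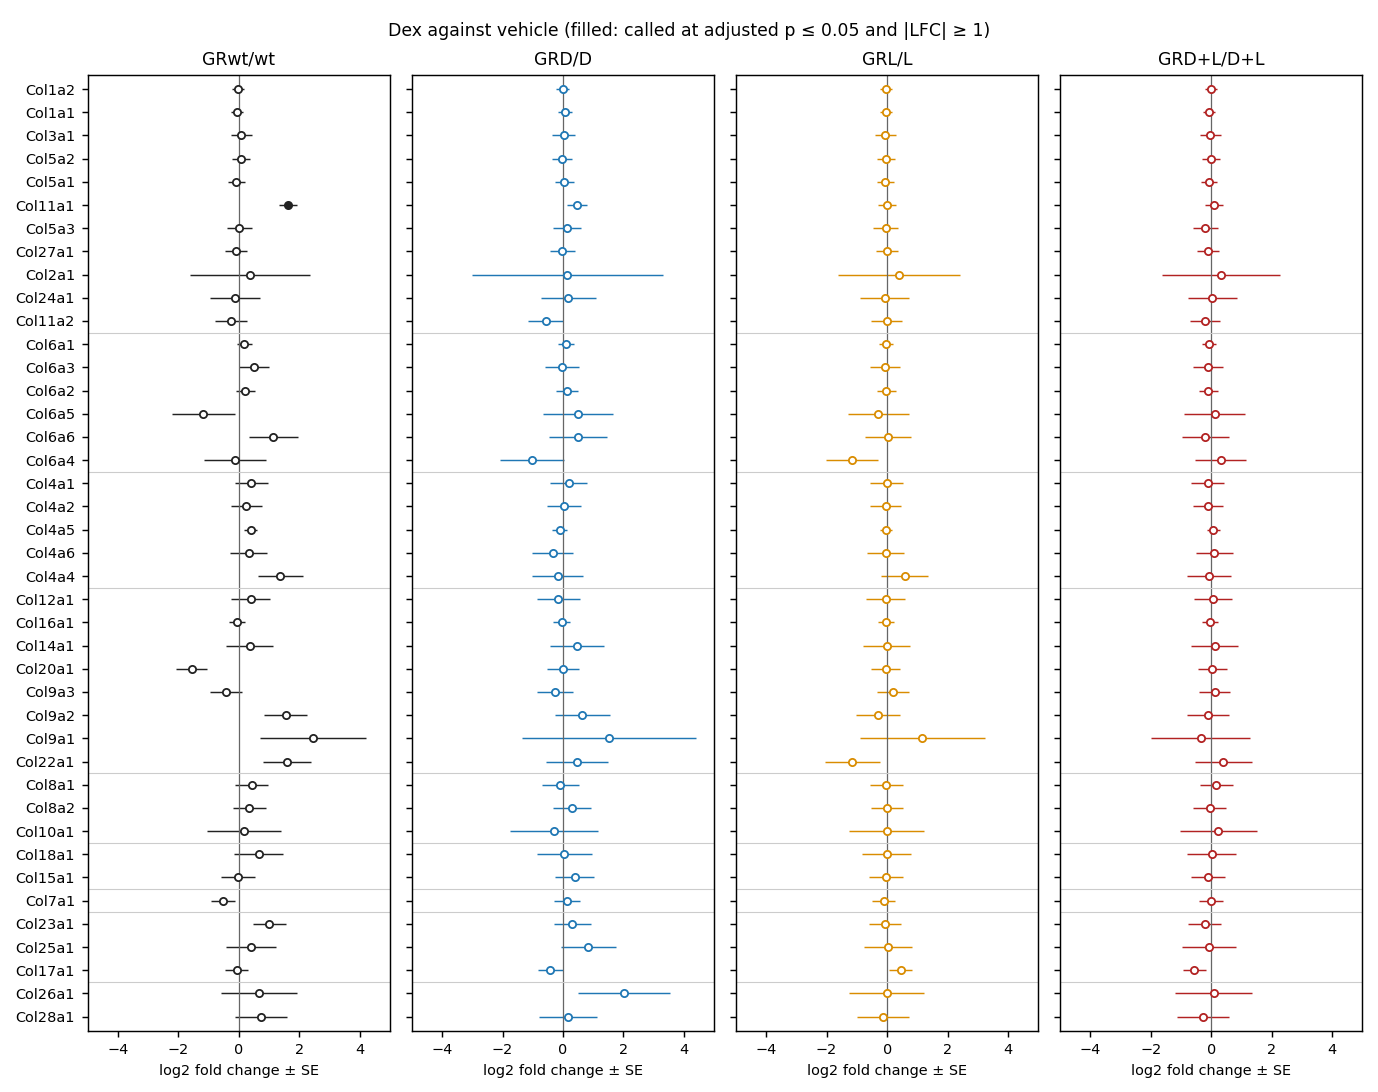
LFC with SE of the 41 tested collagen genes for Dex against vehicle in each genotype, by structural class; filled points passed both thresholds. The only filled point is Col11a1 in GRwt/wt (1.62), and for genes with a mean of at least 1 CPM the LFC stayed between -0.29 and 0.38 in GRD+L/D+L and GRL/L.

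The difference of the Dex response from that of GRwt/wt was tested as an interaction. For Col11a1 it was -1.16 (SE 0.44, unadjusted p = 0.0169, adjusted p = 0.688) in GRD/D, -1.63 (SE 0.42, unadjusted p = 0.00107, adjusted p = 0.664) in GRL/L and -1.54 (SE 0.42, unadjusted p = 0.00173, adjusted p = 0.778) in GRD+L/D+L. No collagen gene was called in these tests by edgeR or DESeq2, where edgeR called 0%, 0.0254% and 0.0254% of all genes and DESeq2 0.104%, 0.127% and 0.143%, and 2, 3 and 2 collagen genes had an unadjusted p under 0.05, beside 7.11%, 6.29% and 5.05% of all genes. Without GRwt/wt vehicle 2 the Col11a1 differences in GRL/L (-2.22, adjusted p = 0.00785) and GRD+L/D+L (-2.13, adjusted p = 0.0168) passed.

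Under Dex the mutants were compared with GRwt/wt Dex libraries, and edgeR called no collagen gene in any of the 3 comparisons, where 0.254% of all genes were called in GRD/D (where 0.0127% were higher), 2.59% in GRL/L (1.37% higher, 1.23% lower) and, for GRD+L/D+L, 2.75% (0.876% higher, 1.87% lower). Unadjusted p-values under 0.05 were found for 8 collagen genes in each and for 11.1%, 22.7% and 20.9% of all genes, and DESeq2 called 4, 3 and 4, where it called 1.77%, 4.9% and 5.19% of all genes. Its calls in GRD/D were Col8a2, Col9a2 and Col10a1 lower and Col20a1 higher. In GRL/L they were Col24a1 and Col27a1 higher and Col22a1 lower, and in GRD+L/D+L Col5a3 and Col20a1 higher and Col22a1 and Col23a1 lower. For Col9a2, Col22a1 and Col23a1, GRwt/wt Dex 2 was the highest library. Col9a2 had 7, 102 and 13 counts in GRwt/wt Dex and 7, 8 and 5 in GRD/D Dex. Col22a1 had 8, 62 and 18 counts, against 3, 1 and 7 in GRL/L Dex and 6, 2 and 6 in GRD+L/D+L Dex. Col23a1 was at 3.89, 32.4 and 8.11 CPM, against 6.15, 3.62 and 5.05 CPM in GRD+L/D+L Dex. Among genes called lower, the groups overlapped for Col9a2 and Col23a1 and not for Col8a2, Col10a1 or Col22a1. The Col11a1 LFC in GRD/D was -0.997 (SE 0.30, adjusted p = 0.176), with 282, 410 and 328 CPM below each of 685, 658 and 693 CPM. Col5a3 in GRD+L/D+L Dex was at 137, 346 and 188 CPM against 76.4, 122 and 89.2 CPM in GRwt/wt Dex, without overlap (LFC 1.22, adjusted p = 0.0943), and was called by DESeq2 (adjusted p = 0.0350) and in an edgeR fit of only the libraries compared (adjusted p = 0.0444). The vehicle and Dex results of GRD+L/D+L come from equally numbered libraries that deviate together and are not independent.

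Many collagen genes differed widely between cultures of a genotype. Over the 35 genes with a mean of at least 1 CPM, the median log2 range across the 3 vehicle libraries was 1.47 for GRwt/wt, 0.715 for GRL/L and 1.39 for GRD+L/D+L, and 0.308 across the 2 of GRD/D. Over all genes at this level it was 0.923, 0.217, 0.381 and 0.126. A range above 1 was found for 25 of the 35 collagen genes in GRD+L/D+L (71.4%, against 16.7% of all genes), 11 in GRL/L (31.4% against 5.57%), 23 in GRwt/wt (65.7% against 45.8%) and 1 in GRD/D (2.86% against 1.79%). The absolute log2 difference of equally numbered vehicle and Dex libraries had a median of 0.0784 for GRL/L and 0.13 for GRD+L/D+L, the genotypes in which the numbers pair the libraries. Ranges are over 3 libraries and differences over pairs, and these values are descriptions.

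In GRD+L/D+L the first culture stood apart from the other two for genes of several classes. Col4a1 was at 1022 CPM in vehicle 1 and 1123 CPM in Dex 1, and at 2984 to 4774 CPM in the other 4 libraries. Col12a1, the FACIT collagen XII of tendon and fascia, was at 818 and 854 CPM in the first culture and 3678 to 4112 CPM in the others. Col18a1, the source of endostatin, went the other way with 929 and 976 CPM against 135 to 156 CPM, and so did Col14a1, a FACIT collagen, with 69.8 and 80.1 CPM against 9.66 to 18.3 CPM. Col2a1, the main fibrillar collagen of cartilage, was at 184 and 231 CPM in the first culture and at 0.177 to 0.686 CPM in the others. Beside it the cartilage genes Sox9 (49.9 and 55.5 CPM against 9.70 to 16.1 CPM) and Acan (5.29 and 3.97 CPM against 0 in the others) were higher in the first culture, while the list of 8 cartilage markers summed to 11.5 to 65.7 CPM over the 6 libraries, with Snorc at 0 in each. Both libraries of the first culture lay above the other 4 for 5 of these 8 markers and below them for none. Of 8 macrophage markers 5 lay above and none below. Of 6 mural and smooth muscle markers 5 lay below, among them Acta2 (272 and 283 CPM against 1492 to 2084 CPM) and Cnn1 (12.2 and 13.5 against 83.4 to 114). Of 8 fibroblast markers 6 lay below, among them Thy1 (67.5 and 58.5 CPM against 186 to 229 CPM), and 2 lay above, Pdgfra (767 and 809 against 191 to 227) and Twist1. Of 6 endothelial markers Kdr (0.933 and 1.03 CPM against 15.5 to 20.5 CPM) and Emcn lay below and Tek (2.07 and 2.39 against 0.230 to 0.803) above. Their part in the collagen values was not tested.

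In GRL/L the third culture differed for Col8a1, the alpha 1 chain of type VIII collagen (447 and 438 CPM against 154 to 226 CPM). It also differed for Col18a1 (1094 and 1095 CPM against 318 to 650 CPM) and Col24a1 (15.1 and 17.3 CPM against 45.0 to 66.6 CPM). Col2a1 was at 16.8 and 21.5 CPM in this culture and at 0.538 to 2.49 CPM in the others. Both libraries of this culture lay below the other 4 for 7 of 8 macrophage markers, among them Lyz2 (218 and 205 CPM against 496 to 542 CPM), and above them for 4 of 8 cartilage markers, among them Comp (5.02 and 5.96 against 0.323 to 2.39), with none the other way in either list. Of 8 fibroblast markers 4 lay below and 2 above, and of 6 endothelial markers 1 lay below and 2 above, among them Tek (10.8 and 10.7 CPM against 1.78 to 4.78 CPM). Their part in the collagen values was not tested. Col12a1 ran from 1774 to 4668 CPM across the 3 GRL/L cultures, with equally numbered libraries at 2995 and 2774, 4668 and 4636, and 1820 and 1774 CPM. Among GRwt/wt libraries Col10a1 was at 204 CPM in vehicle 2 and 58.5 and 171 CPM in Dex 2 and 3, against 0.679 to 6.42 CPM in the other 3. The cartilage matrix genes Hapln1 (11.5, 27.4 and 19.1 CPM) and Comp (36.0, 99.1 and 41.1 CPM) were high in the same 3 libraries, and in all other libraries at most 0.904 and 5.96 CPM. Matn4, of the same list, was also highest in these 3 among GRwt/wt libraries, at 4.67 CPM in vehicle 2, 5.06 CPM in Dex 3 and more in Dex 2, while vehicle 1 had 3.75, vehicle 3 had 1.68 and Dex 1 had 2.98 CPM. Acan and Sox9 did not separate these 3 libraries from GRwt/wt vehicle 1 and Dex 1. Acan was at 6.55, 8.57 and 9.86 CPM in these 3 libraries and at 8.94 and 5.31 CPM in GRwt/wt vehicle 1 and Dex 1. Sox9 was at 25.8, 31.0 and 37.2 CPM against 30.1 and 29.6 CPM. The list summed to 27.0 to 187 CPM in GRwt/wt libraries, and its part was not tested. Col28a1, a collagen of peripheral nerve, ran from 0.165 CPM in GRwt/wt vehicle 1 to 9.02 CPM in GRD+L/D+L vehicle 1, and Col23a1, a transmembrane collagen, reached 32.4 CPM in GRwt/wt Dex 2 against 3.89 and 8.11 CPM in the other GRwt/wt Dex libraries.

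**Figure D5:**
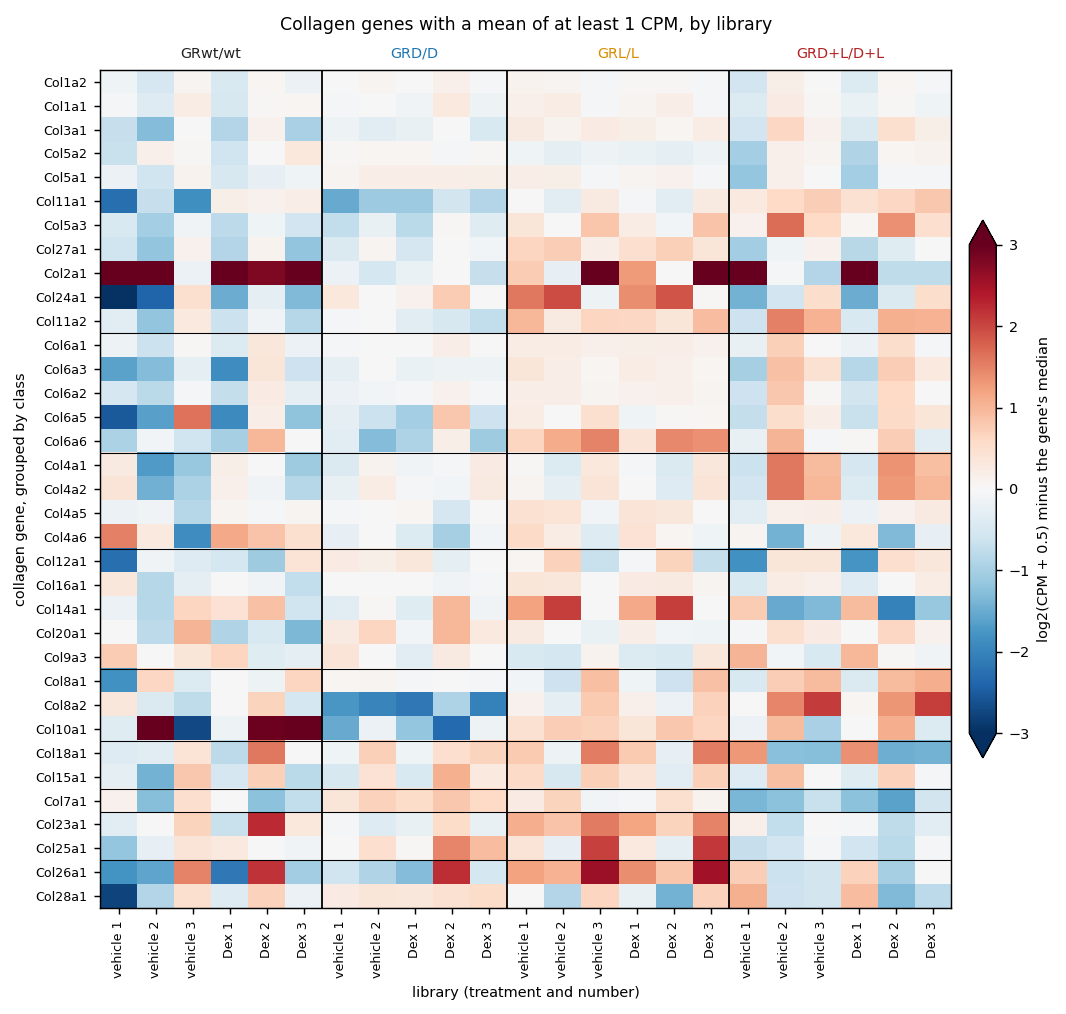
Heat map of log2(CPM + 0.5) minus the gene's median over all libraries, for the 35 collagen genes with a mean of at least 1 CPM (rows, by class) in the 23 libraries (columns, by genotype and treatment), with colours limited to 3 in either direction. Equally numbered vehicle and Dex columns look alike in both genotypes with the L mutation, and the highest value is 7.54.

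A list of 42 genes for the hydroxylation, folding, trimming, cross-linking and fibril assembly of collagen was read in the same fits, and all 42 were tested. In GRL/L against GRwt/wt vehicle 1 rose and 2 fell, in GRD+L/D+L against GRwt/wt vehicle 2 rose and 3 fell, and in GRD+L/D+L against GRD/D vehicle 3 fell. Beside these stand the shares of all genes called, 4.93% higher and 2.84% lower, 3.62% higher and 4.71% lower, and 0.692% lower, and with 42 genes the first 2 sets of counts are near the background. Their median LFC against GRwt/wt vehicle was -0.16 for GRL/L and -0.26 for GRD+L/D+L, beside -0.05 over all genes. None of the 42 was called by edgeR with Dex in any genotype or in GRD/D against GRwt/wt. With Dex, 5 of them had an unadjusted p under 0.05 in GRwt/wt, beside 15.6% of all genes, and 0 in each mutant. In GRD/D against GRwt/wt 3 did in vehicle, beside 12.4% of all genes, and 10 under Dex, beside 11.1%.

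P4ha2, a catalytic subunit of the prolyl hydroxylase that stabilises the triple helix, was at 121, 199 and 217 CPM in GRwt/wt vehicle, at 229 and 182 CPM in GRD/D, at 68.9, 61.4 and 81.9 CPM in GRL/L and at 75.8, 63.3 and 73.1 CPM in GRD+L/D+L vehicle. Both genotypes with the L mutation lay below the others, and P4ha2 fell by 1.34 on the log2 scale in each (adjusted p = 0.00215 and 0.00293). Fmod, the fibril-binding proteoglycan fibromodulin, was at 63.3, 221 and 92.2 CPM in GRwt/wt vehicle and at 9.33, 3.02 and 13.0 CPM in GRD+L/D+L vehicle, and fell by 3.90 (adjusted p = 0.00159). Pcolce2, an enhancer of procollagen C-proteinase, fell by 2.52 in GRL/L and fell by 3.21 in GRD+L/D+L (adjusted p = 0.0136 and 0.00544), although GRwt/wt vehicle 3 at 2.90 CPM was near the GRL/L values of 1.72, 1.72 and 2.38 CPM. Plod2, the lysyl hydroxylase of the telopeptides, rose by an LFC of 2.23 in GRD+L/D+L (adjusted p = 0.00942), with 128, 432 and 510.2 CPM against 25.0, 100.03 and 103.6 CPM, the lowest value being that of GRwt/wt vehicle 1. Without GRwt/wt vehicle 1 and 3 together the Plod2 LFC was 1.82 (adjusted p = 0.0838). Tll1, a procollagen C-proteinase, rose there by an LFC of 1.46 (adjusted p = 0.0404), a call lost without GRwt/wt vehicle 1 (1.17, 0.108), without vehicle 3 (1.34, 0.0829) and without both (0.66, 0.495). Kera, the corneal proteoglycan keratocan, rose by an LFC of 3.68 in GRL/L (adjusted p = 0.00258), with 49.0, 56.3 and 10.3 CPM against 1.27, 3.60 and 4.08 CPM.

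Under Dex, P4ha2 fell by 1.09 in GRL/L against GRwt/wt (adjusted p = 0.0235), and Fmod (LFC -4.25, adjusted p = 0.00358), Pcolce2 (-2.60, 0.0403) and Tmem38b, an endoplasmic reticulum cation channel whose loss causes brittle bone disease (-1.13, 0.00396), fell in GRD+L/D+L. In GRD+L/D+L against GRD/D vehicle the 3 that fell were Pcolce2 (LFC -3.39, adjusted p = 0.0294), Fmod (-3.06, 0.0351) and P4ha2 (-1.54, 0.0156).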

How the data were processed

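RNA was from primary MEFs of 4 GR genotypes, each exposed to vehicle or 10 nM Dex for 5 h. The authors prepared TruSeq libraries, sequenced them on a NovaSeq instrument, mapped reads to mm10 with HISAT2 2.1.0 and counted unique reads per gene with featureCounts 2.0.0, per the submitters' processing notes, which also name FastQC and DESeq2. The deposited values were raw counts per Ensembl gene, and annotation release and strandedness are not given in the sources used here, so that counts of overlapping genes are uncertain, among collagens those of Col3a1, Col4a1, Col4a2, Col4a3, Col5a1, Col6a4, Col6a6, Col7a1, Col9a3, Col10a1, Col15a1, Col20a1 and Col22a1, which share 14 to 563 exon bases with another gene.

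Symbols, lengths and coordinates were taken from GENCODE M21 of GRCm38 (55227 of 55487 identifiers matched), and upstream windows from RefSeq GRCm38.p6, without bases of the gene's own exons. Libraries were grouped by genotype and treatment per the labels. The quasi-likelihood functions of edgeR 4.0.16 (R 4.3.3) were used, with all 23 libraries in 1 model, 1 mean per group, TMM scaling and a prior count of 0.125, after filterByExpr kept 15748 genes. Adjusted p-values are Benjamini-Hochberg values over these genes from edgeR unless another tool is named. Intervals are 95% intervals of the fitted LFC. DESeq2 1.42.0 served as an alternative, and scripts were tested on simulated data. Named genes were those called, the 8 largest LFC among collagens with a mean of at least 1 CPM per comparison and the leading gene of each class, given where they carry a result, and examples of culture differences were chosen with their values known. The members and lists were chosen with earlier results of these data known. Same-numbered vehicle and Dex libraries deviated together over all genes in GRL/L (r = 0.431, 0.741 and 0.733) and GRD+L/D+L (0.928, 0.847 and 0.773), but not in each pair of GRwt/wt (0.572, 0.065 and 0.0323) or GRD/D (0.339 and -0.233), where other numbers matched better (GRwt/wt vehicle 2 with Dex 3, r = 0.589, and vehicle 3 with Dex 2, 0.364, and GRD/D vehicle 2 with Dex 3, 0.535). No library pair of a group matched within counting noise (lowest mean chi-square per gene 9.62).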

Additional observations from a re-analysis of the deposited data

How the results depend on the processing

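Of 801 values recomputed under alternatives, 684 kept their direction and side of the threshold. Leave-one-out fits in which a group kept a single library assume that it varies like the other groups. Leaving out GRwt/wt vehicle 1 and 3 together and the culture block were added after seeing the data. Depth limits statements on the 9 collagen genes with a mean under 1 CPM, and with 2 or 3 libraries a group an SE near 0.5 in the fit without pairing left most Dex LFC intervals wider than 1 to either side.

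Counts of collagen genes called changed as follows. With Dex in GRwt/wt (1) they were 0 in a fit of only the libraries compared, 0 with the culture block in that fit, 0 without GRwt/wt vehicle 1 and 3 and 0 to 3 when single libraries were left out. For GRD/D against GRwt/wt in vehicle (0) they were 1 without GRwt/wt vehicle 1 and 3, namely Col10a1, and 0 to 1 when single libraries were left out. For GRL/L (1) they were 2 with at least 10 counts in every library, 2 by adjusted p alone, 4 with the GC trend removed, 0 with only the libraries compared, 4 with DESeq2, 6 without GRwt/wt vehicle 1 and 3 and 1 to 9 when single libraries were left out. For GRD+L/D+L (3) they were 5 with the GC trend removed, 2 with sex as a covariate, 1 with only the libraries compared, 8 with DESeq2, 7 without GRwt/wt vehicle 1 and 3 and 1 to 9 when single libraries were left out. Under Dex, GRD/D against GRwt/wt (0) gave 1 with only the libraries compared and 4 with DESeq2, GRL/L (0) gave 1 with the GC trend removed, 3 with only the libraries compared, 3 with DESeq2 and 0 to 1 when single libraries were left out, and GRD+L/D+L (0) gave 3, 4 and 0 to 1 under the last 3 of these. GRD+L/D+L against GRL/L (0) gave 1 with DESeq2, and against GRD/D (2) gave 3 with the GC trend removed, 0 with only the libraries compared, 4 with DESeq2 and 0 to 2 when single libraries were left out. Differences of the Dex response in GRD+L/D+L and GRL/L (0) gave 0 to 1. The causes of these changes were not tested.

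With the replicate number as a block, GRL/L against GRwt/wt in vehicle had 4 collagen genes called in place of 1, Col11a1, Col24a1, Col6a6 and Col27a1, and Col8a2 in GRD+L/D+L was no longer called (LFC 1.47, adjusted p = 0.0768). These groups share only numbers, since cultures of different genotypes come from different embryos. For Dex in GRD+L/D+L and GRL/L, where the numbers pair the libraries, the block changed no call.

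Small LFC with Dex changed sign. In GRwt/wt Col1a1 was 0.11 with the GC trend removed, 0.26 without vehicle 1 and 3, and -0.20 to 0.15 when single libraries were left out. Col1a2 was 0.0125 with RLE scaling, 0.0038 without a filter, 0.0245 with at least 10 counts, 0.14 with the GC trend removed, 0.0125 with DESeq2, 0.31 without vehicle 1 and 3, and -0.17 to 0.17 when single libraries were left out, and Col3a1 -0.37 to 0.53. In GRD/D the leave-one-out ranges were -0.17 to 2.54 for Col26a1, -0.0897 to 0.15 for Col1a1, -0.0693 to 0.0341 for Col1a2 and -0.0918 to 0.12 for Col3a1, Col1a2 was 0.0323 and 0.0230 with the culture block in all and in the compared libraries, and Col3a1 was -0.0134 with the number block. The culture block joined libraries by number, and in GRD/D vehicle 2 was male and Dex 2 female, so that the pair is not from 1 embryo. In GRL/L Col1a1 ranged from -0.11 to 0.0228. In GRD+L/D+L the ranges were -0.66 to 0.37 for Col5a3, -0.25 to 0.0766 for Col1a1, -0.21 to 0.15 for Col1a2 and -0.29 to 0.30 for Col3a1. Col1a2 was 0.0294 with the GC trend removed and 0.0059 and 0.0026 with the culture block in all and in the compared libraries, and Col3a1 0.0074 and 0.0040. When single libraries were left out, the called LFC ranged from 1.34 to 2.21 for Col11a1 with Dex in GRwt/wt and from 1.18 to 2.04 in GRL/L against GRwt/wt, from 0.86 to 1.75 for Col5a3 and were at least 1.13 for Col8a2 in GRD+L/D+L against GRwt/wt, and from 1.65 to 2.09 for Col11a1 and from 2.86 to 3.79 for Col8a2 against GRD/D.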
